A study of Rattus norvegicus with 26 samples.

Results

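The transcripts of 9 genes of the neurotrophin system were followed in the rat dentate gyrus (DG), the part of the hippocampus in which granule cells lie. The genes were Bdnf, Ntf3, Ntrk2, Ntrk3, Ngfr, Sort1, Nrn1, Vgf and Igf1r, chosen by name and function, with earlier results of these data known. All 9 were found among the 17910 gene IDs of the deposited values, and all 9 were among the 15595 genes that entered the tests because their normalized counts averaged 5 or more.

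Neurotrophins are small secreted proteins that support the survival, growth and synaptic plasticity of neurons. They are made as precursors, are cut to the mature form by proteases, and signal through Trk receptor tyrosine kinases, while the precursors bind the low-affinity receptor Ngfr together with sortilin. In the DG, granule cells make Bdnf and send it along the mossy fibers, and Bdnf, Nrn1 and Vgf belong to the genes that neuronal activity switches on.

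RNA was measured in 26 male rats of the F344 strain, 6 months old, with 1 library per rat from the DG of a single hemisphere. The vehicle group (Veh, n = 10) was gavaged with vehicle, and its rats belonged to an ongoing study of brain aging. The Dox group (n = 8) was injected weekly for 4 weeks with doxorubicin, an anthracycline used in chemotherapy, at 2 mg/kg. The Dox + ABT group (n = 8) received the same doxorubicin together with ABT-263, a senolytic that blocks anti-apoptotic proteins of the Bcl-2 family, gavaged at 12 mg/kg on 5 days in a row in alternate weeks. All rats of the Dox and Dox + ABT groups thus carried the doxorubicin treatment, and the question was which transcripts differed with doxorubicin and with the added senolytic. The values are normalized counts, that is, estimated reads per transcript row divided by a size factor of the library, and the rows of a gene were summed.

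Estimated reads per library ran from 10.2 M to 24.3 M, and the group medians were 16.7 M (Veh), 15.7 M (Dox) and 15.1 M (Dox + ABT). The libraries fell into kinds along the axis that carried most of the within-group variance (28.4%): 16 libraries of the first kind (4 Veh, 5 Dox and 7 Dox + ABT) and 10 of the second kind (6 from Veh, 3 from Dox, 1 from Dox + ABT), in which genes for ribosomal proteins took 0.570% to 1.09% and 1.16% to 1.89% of the normalized counts. Markers of granule cells were present in every rat, C1ql2 at no less than 3980.4 and Prox1 at no less than 1680 normalized counts. In Dox against Veh, 3 of 5 astrocyte markers were lower at p under 0.01 (Gfap by 0.75, Aqp4 by 0.43 and Aldh1l1 by 0.43 on the log2 scale), and the summed astrocyte markers ran from 36226 to 56558 in Veh and from 29841 to 37275 in Dox. In Dox + ABT against Veh, Aldh1l1 was lower by 0.47, C1ql2 was lower by 0.46 on the log2 scale (limma, p = 0.000697) and the interneuron markers Gad1 and Gad2 were higher by 0.25 and 0.27 (limma, p = 0.00898 and 0.00795), and their part in the results below was not tested. Markers of the neighboring CA fields were also present, and their sum over 6 genes ran from 4938 to 24902 between rats. Since bulk tissue was sequenced, fewer cells of a type and less RNA per cell cannot be told apart in any value below.

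At p under 0.01 in limma's test, none of the 9 genes (0 of 9) differed between Dox and Veh, between Dox + ABT and Veh, or between Dox + ABT and Dox, where 2.87%, 7.84% and 4.03% of all tested genes passed. At p under 0.05, 1 of 9 passed in each comparison, Igf1r against Veh in both treated groups and Nrn1 between the treated groups, against 10.2%, 22.5% and 12.7% of all genes. The exact permutation test, run on each gene by itself, put 0 of 9 under 0.01 in each comparison and 1 of 9 under 0.05, Nrn1 between the treated groups. No gene had groups that did not overlap (0 of 9 in each comparison), a pattern found in 0.0192%, 0% and 0.135% of all tested genes. With 9 genes, a share of 0 is near these backgrounds.

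**Figure D1:**
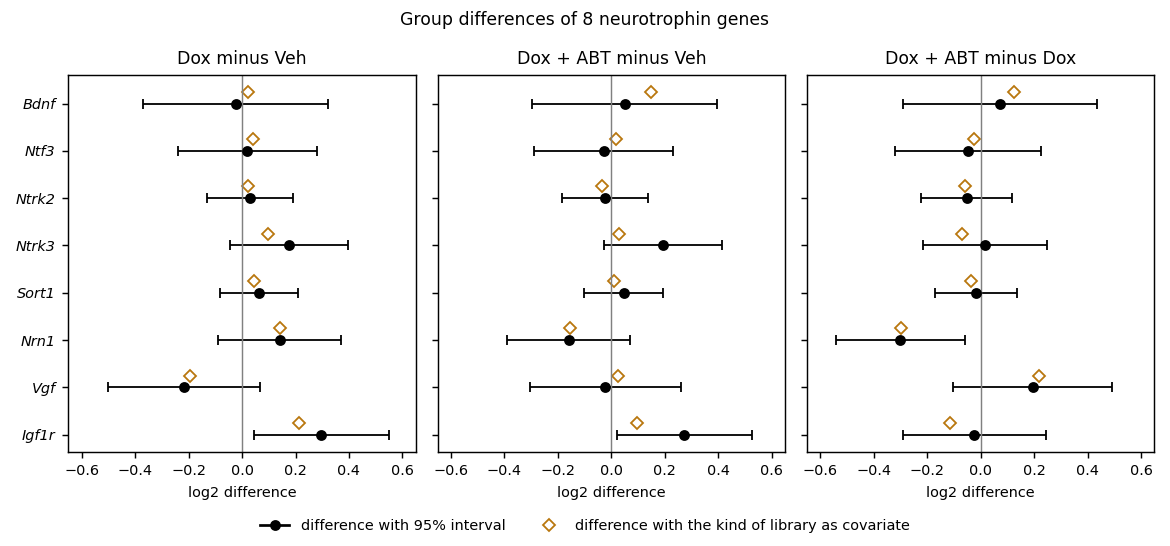
Differences between groups for 8 of the genes, in log2 units of normalized count plus 1, with the 95% interval from limma over 26 rats (points and bars) and the difference when the kind of library is in the fit (diamonds). The interval leaves out 0 for Igf1r in both comparisons with Veh and for Nrn1 between the treated groups. Ngfr, whose intervals are wider than the axis, is left out.

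The ligands come first. Bdnf (ENSRNOG00000047466), the ligand of the receptor TrkB, ran from 676 to 986 normalized counts in Veh rats with a median of 899. In Dox rats it ran from 438 to 1214 with a median of 970.2. In Dox + ABT rats it ran from 627 to 1118 with a median of 906. The Dox rats lay on both sides of the Veh rats, 4 of 8 above every Veh rat and 2 of 8 below every Veh rat, so the groups overlapped while the spread of Dox was wide. The coefficient of variation was 34.1% in Dox, 13.8% in Veh and 17.3% in Dox + ABT, and the spreads were not tested against each other. The group means were 862 ± 119 for the 10 Veh rats (SD), 896 ± 306 for the 8 Dox rats and 896 ± 155 for the 8 Dox + ABT rats. Dox minus Veh was -0.024 in log2 units, with a 95% interval of -0.37 to 0.32 (limma, adjusted p = 0.970), and Dox + ABT minus Veh was 0.049 with an interval of -0.30 to 0.39 (adjusted p = 0.888).

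The low Bdnf values of the Dox group belonged to Dox replicate 1, at 438 normalized counts or 50.9% of the Veh mean, and Dox replicate 2, at 453 or 52.6%. Bdnf was listed in 8 transcript rows, which carry no transcript name and so cannot be assigned to a promoter or an isoform. Of the 5 rows with a mean of at least 50, all 5 lay below the Veh mean in both rats, from 31.6% to 62.8% of it in Dox replicate 1 and from 22.8% to 68.4% in Dox replicate 2. The low values were thus spread over the rows. The same rats had the lowest summed microglial markers of all 26 rats, 1953 and 1955 normalized counts over 5 genes, where the other rats ran from 2188 to 4841, and what part this had in the Bdnf values was not tested. Both libraries were of the first kind.

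Within the second kind of library the 3 Dox rats had Bdnf at 1025 to 1214 normalized counts, above all 6 Veh rats at 676 to 986, with a log2 difference of 0.35 ± 0.12 (SE) that did not pass adjustment (limma, adjusted p = 0.296). How many of all genes separated in this way within that kind was not counted. Within the first kind the difference was -0.20 ± 0.22 (SE, limma, adjusted p = 0.665). Direction thus turned between the kinds, and the difference between them was not tested. Fitted with the kind as a covariate, Dox minus Veh was 0.023.

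**Figure D2:**
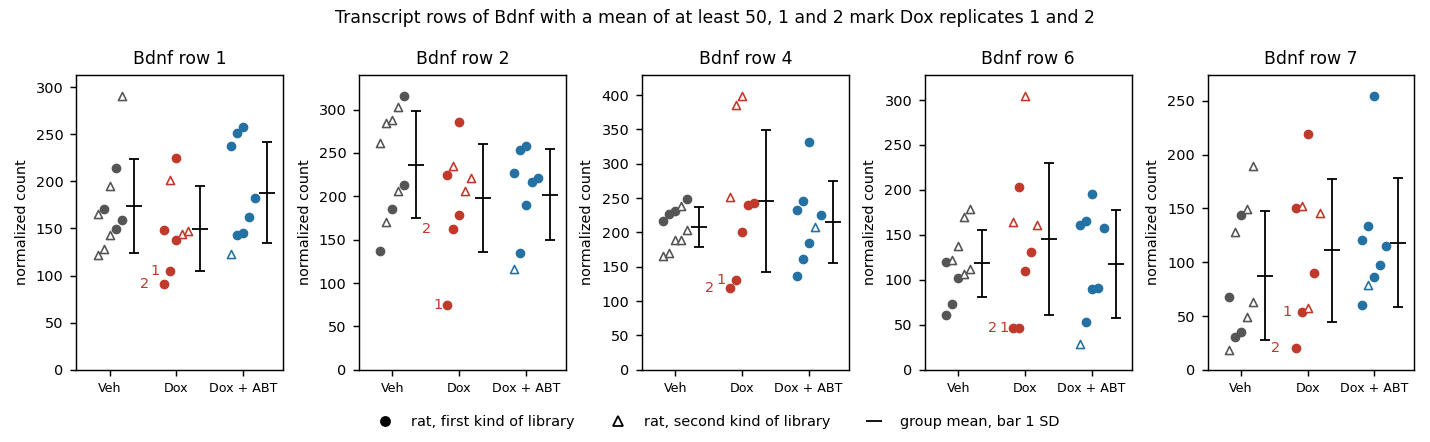
Normalized counts of the 5 Bdnf transcript rows with a mean of at least 50, for each rat by group, with the group mean and 1 SD beside the points. Dox replicates 1 and 2, marked by their numbers, lie below the Veh mean in all 5 rows.

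Bdnf and Vgf are known targets of CREB, the factor that binds the cAMP response element, and the starts of these genes that hold its motif are shown. RefSeq promoters of the rat assembly GRCr8, another build than that of the deposited values, were at hand for 12 starts of 5 of the 9 genes, 6 of them of Bdnf. The letters TGACG or CGTCA, the core of the cAMP response element, were searched in the 250 bases before each start on both strands and were found before 2 of the 12 starts, against 18.2% of 33469 promoters of the same length. The whole palindrome TGACGTCA, which contains both cores, stood before the start of Vgf, as in 1.59% of all promoters. The last 100 bases before the start are given 5′ to 3′ along the gene's strand, with the match in capitals, for a Bdnf start on the plus strand (chr3:116637758-116637857, match beginning 35 bases before the start) and for Vgf on the minus strand (chr12:25277021-25277120, match beginning 90 bases before it).
Bdnf: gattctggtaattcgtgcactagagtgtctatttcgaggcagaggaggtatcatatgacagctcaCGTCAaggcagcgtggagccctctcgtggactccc
Vgf: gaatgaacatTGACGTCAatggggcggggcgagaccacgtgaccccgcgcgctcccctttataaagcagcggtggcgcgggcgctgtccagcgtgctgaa
A match describes the letters only and shows no binding.

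Ntf3 (ENSRNOG00000019716), or neurotrophin-3, is the preferred ligand of TrkC. It ran from 234 to 399.7 normalized counts in Veh (median 321), from 232 to 453 in Dox (median 298) and from 235 to 366 in Dox + ABT (median 312). The groups overlapped over most of their range, and the highest value of all 26 rats was that of Dox replicate 1, the rat with the lowest Bdnf. The log2 difference was 0.019 for Dox minus Veh (interval -0.24 to 0.28), -0.029 for Dox + ABT minus Veh (-0.29 to 0.23) and -0.048 for Dox + ABT minus Dox (-0.32 to 0.23), with adjusted p from limma of 0.970, 0.914 and 0.909. Of its 3 rows, row 2 held 63.2% of the gene's normalized counts.

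The receptors follow. Ntrk2 (ENSRNOG00000018839) encodes TrkB, the receptor of Bdnf, and is made by neurons and, in a form without the kinase, by astrocytes. It ran from 9002 to 11828 normalized counts in Veh (median 10896), from 9228 to 13123 in Dox (median 10736) and from 9377 to 12591 in Dox + ABT (median 10345). It was among the steadiest of the 9 genes, with a coefficient of variation of 10.2% over all rats, and the groups overlapped throughout. The log2 difference was 0.030 for Dox minus Veh (interval -0.13 to 0.19), -0.023 for Dox + ABT minus Veh (-0.18 to 0.14) and -0.053 for Dox + ABT minus Dox (-0.22 to 0.12), with adjusted p from limma of 0.909, 0.888 and 0.818. The 95% intervals of the 3 comparisons together covered folds from 0.857 to 1.14.

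Ntrk2 was listed in 3 rows, of which row 3 held 76.3% and row 2 held 18.2% of the normalized counts. Row 2 averaged 1921 ± 205 for the 10 Veh rats (SD), 2073 ± 241 for the 8 Dox rats and 1828 ± 264 for the 8 Dox + ABT rats. Its difference between the treated groups, -0.18 on the log2 scale (limma, p = 0.0516, adjusted p = 0.458), was the one with the smallest p of all 18 rows of Bdnf, Ntf3, Ntrk2 and Ntrk3. At p under 0.01, 0 of these 18 rows passed in any comparison, where 2.36%, 6.39% and 3.25% of all rows tested did. Row 3 differed by -0.0040 to 0.0021 in the 3 comparisons. Because the rows carry no name, it cannot be said which of them are the kinase form.

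Ntrk3 (ENSRNOG00000018674) encodes TrkC, the receptor of neurotrophin-3. It ran from 865 to 1474 normalized counts in Veh (median 977), from 955 to 1433 in Dox (median 1132) and from 808 to 1305 in Dox + ABT (median 1244). Of the 8 Dox rats, 6 lay above the Veh median, as did 7 of the 8 Dox + ABT rats, but the highest rat of all was a Veh rat and the groups overlapped. The log2 difference was 0.17 ± 0.11 (SE) for Dox minus Veh (limma, p = 0.116, adjusted p = 0.572) and 0.19 ± 0.11 for Dox + ABT minus Veh (limma, p = 0.0850, adjusted p = 0.285). Over the 26 rats, the deviations of Ntrk3 from the group means had r = 0.70 with the mean of 5 granule cell markers. For microglial, oligodendrocyte and red-cell markers r was -0.66, -0.63 and -0.62. The part of these cells in the Ntrk3 differences was not tested.

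Ntrk3 also differed between the kinds of library within groups, by -0.35 in the second kind against the first (limma, p = 6.63e-05), a comparison in which 35.1% of all genes passed at p under 0.01. The kinds were split on these same expression values, Ntrk3 among them, so this p is no independent evidence of a difference. In Veh Ntrk3 averaged 1164 ± 271 in 4 libraries of the first kind (SD) against 952 ± 48.6 in 6 of the second, and in Dox 1265 ± 134 in 5 against 999 ± 66.2 in 3. Once the kind was a covariate, the differences from Veh were 0.096 for Dox and 0.027 for Dox + ABT. Array weights moved them the other way, to 0.32 and 0.31 (limma, adjusted p = 0.0146 and 0.00396), in a fit in which 20.2% and 34% of all genes passed at p under 0.01. With the kind as covariate, the difference of Dox + ABT, a group with 7 libraries of the first kind, fell more than that of Dox. The kinds were spread unevenly over the groups, so kind and treatment cannot be told apart here.

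Ngfr (ENSRNOG00000005392) encodes the receptor that binds all neurotrophins and their precursors, and adult hippocampal neurons make little of it. It was near the filter, with 1.06 to 23.9 normalized counts in Veh (median 6.28), 1.17 to 14.6 in Dox (median 5.60) and 0 to 21.6 in Dox + ABT (median 9.05), where 1 rat was listed at 0. The values of the groups overlapped throughout, and they rest on few reads each. The log2 difference between Dox and Veh was -0.29 with an interval of -1.38 to 0.79 (limma, adjusted p = 0.859), so that folds from 0.383 to 1.73 could not be told from no change at this depth. For the treated groups against each other it was 0.26 with an interval of -0.89 to 1.40 (limma, adjusted p = 0.878).

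Sort1 (ENSRNOG00000031814) encodes sortilin, which sorts neurotrophin precursors into the secretory pathway and binds them at the cell surface with Ngfr. It ran from 10676 to 13946 normalized counts in Veh (median 12573), from 11709.8 to 15569 in Dox (median 12715) and from 11831 to 14951 in Dox + ABT (median 12441.5). It had the lowest coefficient of variation of the 9 genes, 8.91% over all rats. The log2 difference was 0.063 for Dox minus Veh (interval -0.083 to 0.21), 0.046 for Dox + ABT minus Veh (-0.10 to 0.19) and -0.018 for Dox + ABT minus Dox (-0.17 to 0.14), with adjusted p from limma of 0.769, 0.733 and 0.945. The groups overlapped in each comparison.

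Nrn1 and Vgf are secreted proteins induced by activity. Nrn1 (ENSRNOG00000050767), or neuritin, promotes neurite growth and is raised by Bdnf. It ran from 2630.1 to 4747 normalized counts in Veh (median 3834), from 3332 to 4689.9 in Dox (median 4124) and from 2404 to 4159 in Dox + ABT (median 3300.2). The treated groups stood on opposite sides of Veh: 6 of 8 Dox rats lay above the Veh median, and 1 of 8 Dox + ABT rats did. Against each other, 4 of the 8 Dox + ABT rats lay below every Dox rat and 4 of the 8 Dox rats lay above every Dox + ABT rat, while the rest overlapped.

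The means of Nrn1 were 3661 ± 684 for the 10 Veh rats (SD), 3993 ± 461 for the 8 Dox rats and 3265 ± 560 for the 8 Dox + ABT rats. Dox + ABT minus Dox was -0.30 ± 0.12 (SE) on the log2 scale, a fold of 0.812 with an interval of 0.686 to 0.960 (limma, p = 0.0168, adjusted p = 0.285, and exact permutation p = 0.0146, two-sided). The difference was -0.30 with the kind as covariate (limma, p = 0.0187) and -0.23 within the first kind (limma, p = 0.0448), and -0.20 after quantile normalization (limma, p = 0.0676). It missed the threshold of 0.01 and passed it when Dox + ABT replicate 1, the rat with the highest Nrn1 of its group, was left out (limma, p = 0.00596). Dox minus Veh was 0.14 (interval -0.089 to 0.37) and Dox + ABT minus Veh was -0.16 (interval -0.39 to 0.070), with adjusted p from limma of 0.662 and 0.400.

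Levels of markers of other cells moved with Nrn1. The 3 rats with the lowest Nrn1 of all 26, Dox + ABT replicate 4 at 2404, Veh replicate 12 at 2630.1 and Veh replicate 6 at 2667, had the 3 highest sums of 5 oligodendrocyte markers, 98587, 94074 and 111718 normalized counts, where the other rats ran from 39047 to 69529. Over the 26 rats, which share the dissection and the sequencing, the deviations of Nrn1 from the group means had r = -0.69 with the mean of these markers and r = -0.62 with that of 5 astrocyte markers. Between Dox + ABT and Dox, 1 of 5 astrocyte markers (Aqp4, 0.45) passed at p under 0.01, higher in Dox + ABT. The summed oligodendrocyte markers ran from 43508 to 68103 in Dox and from 46007 to 98587 in Dox + ABT, and the summed astrocyte markers from 29841 to 37275 and from 34806 to 50607. No marker of these lists was at 0 in any rat, and their part in the Nrn1 difference was not tested.

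Vgf (ENSRNOG00000001416) encodes a granin-like precursor of neuropeptides that is induced by neurotrophins. It ran from 1005 to 1997 normalized counts in Veh (median 1288), from 786 to 1583 in Dox (median 1068) and from 970.3 to 1757 in Dox + ABT (median 1327). Of the Dox rats, 5 of 8 lay below the Veh median and 2 lay below every Veh rat, but the ranges overlapped. The log2 difference was -0.22 ± 0.14 (SE) for Dox minus Veh (limma, p = 0.127, adjusted p = 0.585) and 0.19 ± 0.15 for Dox + ABT minus Dox (limma, p = 0.193, adjusted p = 0.595). Dox + ABT minus Veh was -0.023 with an interval of -0.31 to 0.26. Within the second kind of library Dox minus Veh was -0.38, and within the first kind it was -0.066 (limma, adjusted p = 0.350 and 0.888). Over the 26 rats, the deviations of Vgf had r = 0.73 with the mean of 5 oligodendrocyte markers. For markers of oligodendrocyte precursors and interneurons r was 0.72 and 0.70, and for granule cells -0.54. The part of these cells in the Vgf differences was not tested.

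Igf1r (ENSRNOG00000014187) encodes the receptor of insulin-like growth factor 1, a tyrosine kinase whose ligand supports neurons and neurogenesis in the DG beside the neurotrophins. It ran from 234 to 571 normalized counts in Veh (median 328), from 359 to 483 in Dox (median 444) and from 365 to 537 in Dox + ABT (median 403). All 8 Dox rats and all 8 Dox + ABT rats lay above the Veh median, and 7 of the 10 Veh rats lay below every rat of either treated group. The groups still overlapped, since the highest rat of all was Veh replicate 11 at 571.

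The means of Igf1r were 361 ± 97.6 for the 10 Veh rats (SD), 433 ± 47.4 for the 8 Dox rats and 427 ± 57.9 for the 8 Dox + ABT rats. Dox minus Veh was 0.30 ± 0.12 (SE) on the log2 scale, a fold of 1.23 with an interval of 1.03 to 1.46 (limma, p = 0.0231, adjusted p = 0.434, and exact permutation p = 0.0501, two-sided). Dox + ABT minus Veh was 0.27 ± 0.12, a fold of 1.21 with an interval of 1.01 to 1.44 (limma, p = 0.0351, adjusted p = 0.193, and exact permutation p = 0.0737). These comparisons share the Veh rats, so a low or high Veh rat moves both. The treated groups differed from each other by -0.023 with an interval of -0.29 to 0.24. Without Veh replicate 11 both differences from Veh passed at p under 0.01, at 0.37 for Dox (limma, p = 0.00181) and 0.35 for Dox + ABT (limma, p = 0.00313), and with array weights they were 0.46 and 0.35 (limma, adjusted p = 0.00650 and 0.00453).

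Igf1r was lower in the second kind of library than in the first by 0.37 on the log2 scale within groups (limma, p = 0.000276). In that comparison 35.1% of all genes passed at p under 0.01. The kinds were split on these same expression values, so this p is no independent evidence of a difference. In Veh the first kind averaged 440.3 ± 110.3 (SD, n = 4) and the second kind 309 ± 39.4 (SD, n = 6). A fit with the kind as covariate gave a Dox minus Veh of 0.21 (limma, p = 0.0398) and a Dox + ABT minus Veh of 0.096 (limma, p = 0.370). Within the second kind the 3 Dox rats, at 359 to 405 normalized counts, lay above the 6 Veh rats, at 234 to 346, and the difference was 0.31 (limma, adjusted p = 0.345). The share of all genes that separated so within that kind was not counted. Within the first kind Dox minus Veh was 0.11 and Dox + ABT minus Veh was 0.012. The deviations of Igf1r had r = -0.58 over the 26 rats with the mean of 4 red-cell markers, of which 0 passed at p under 0.01 in limma's test in any comparison and whose sum ran from 2327 to 25997 in Veh, from 3608 to 128552 in Dox and from 3172 to 11576 in Dox + ABT. They had r = -0.57 with the mean of 5 microglial markers, of which 3 of 5 were lower in Dox than in Veh at p under 0.01 (Cx3cr1, Aif1 and Tmem119), 1 of 5 was lower in Dox + ABT than in Veh (Csf1r, -0.48), and whose sum ran from 2321 to 4841 in Veh, from 1953 to 3418 in Dox and from 2188 to 3851 in Dox + ABT. None of these markers was at 0 in any rat, and their part in the Igf1r differences was not tested.

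**Figure D3:**
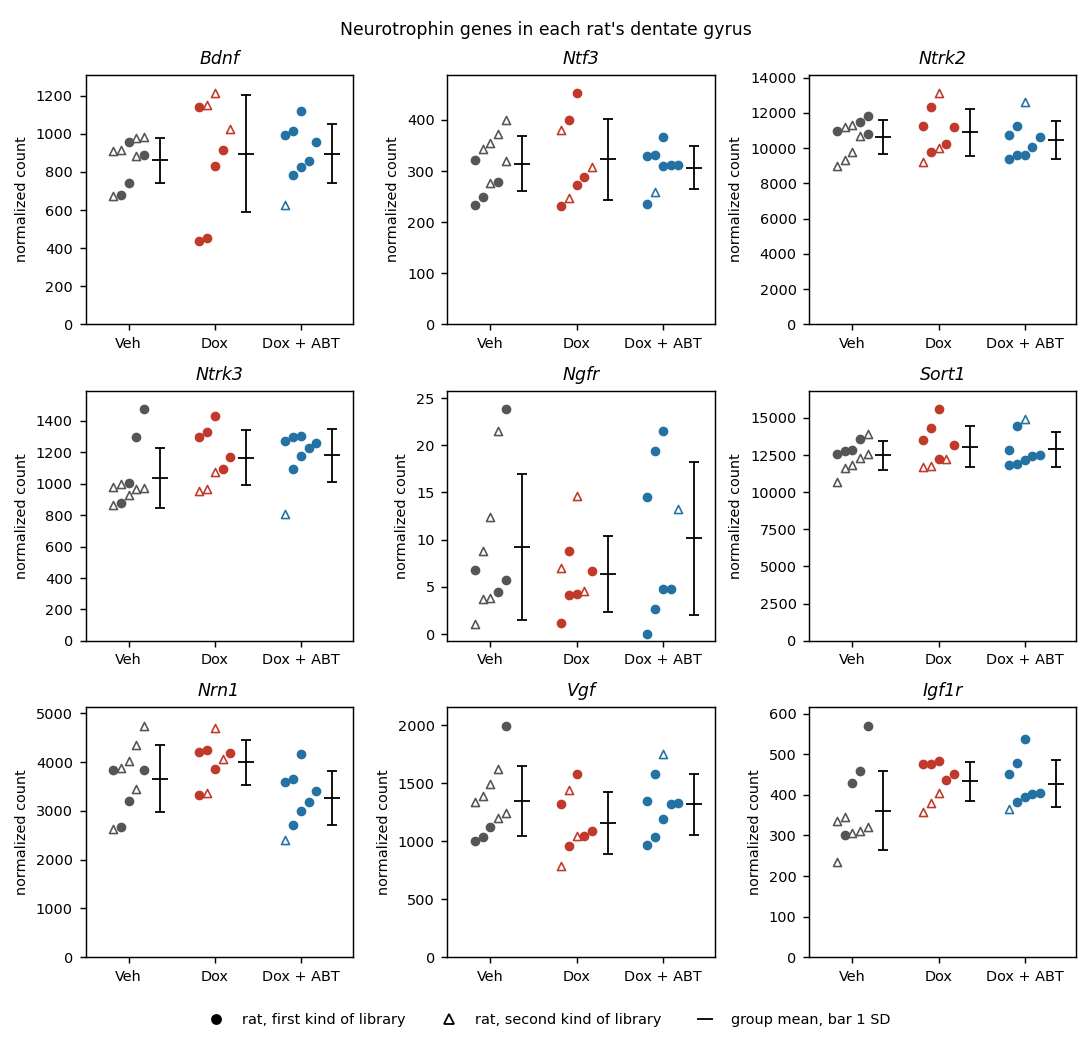
Normalized counts of the 9 genes for each rat by group, with filled circles for the first and open triangles for the second kind of library, and the group mean with 1 SD beside the points. The axes start at 0, slightly below it for Ngfr. The 8 Dox rats and the 8 Dox + ABT rats sit above the median of Veh for Igf1r, and Bdnf of the Dox group spreads from 438 to 1214.

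How the genes varied together from rat to rat was described by the deviations of each rat from its group mean on the log2 scale, over 26 rats that share the dissection, the sequencing and the kinds of library. The pair of receptors Ntrk3 and Igf1r had the largest correlation in size of the 36 pairs, with r = 0.74, and 0.67 among the 16 rats of the first kind and 0.31 among the 10 of the second. Ntrk2 and Nrn1 went opposite ways, with r = -0.67 over all rats, -0.49 in the first kind and -0.78 in the second. Ngfr and Nrn1 also went opposite ways (r = -0.65), Ngfr being close to the filter. Bdnf and Nrn1 had r = 0.45. Bdnf and its receptor Ntrk2 had r = -0.065, and Ntf3 and its receptor Ntrk3 had r = -0.040. In the first and the second kind alone these were 0.20 and -0.34 for Bdnf with Ntrk2, and -0.017 and 0.30 for Ntf3 with Ntrk3. With Sort1, which binds the precursors, r was -0.25 for Bdnf and -0.38 for Ntf3, and Ntf3 had r = -0.35 with Ngfr.

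**Figure D4:**
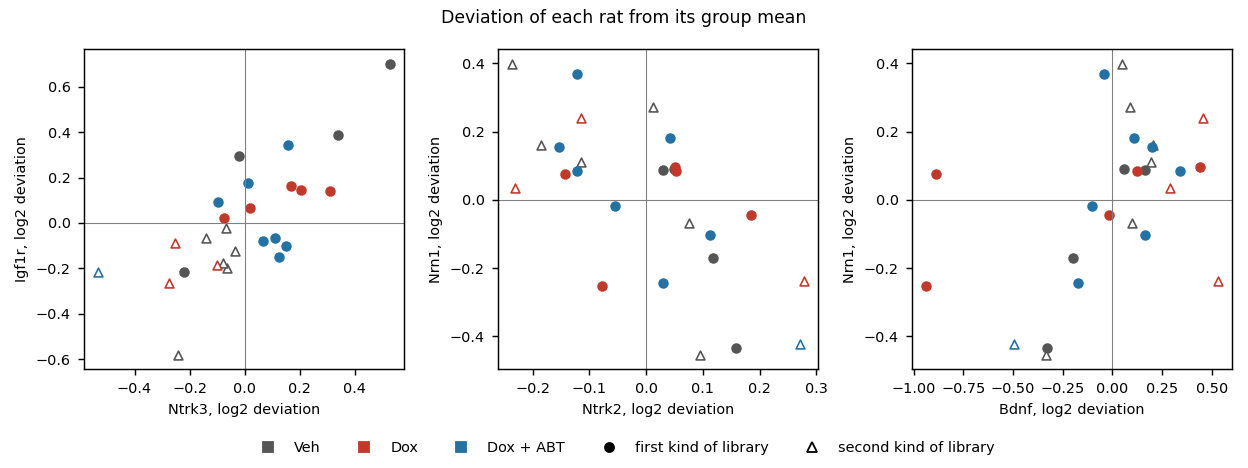
Log2 deviations of each rat from its group mean for Ntrk3 and Igf1r, Ntrk2 and Nrn1, and Bdnf and Nrn1, colored by group and marked by the kind of library. Ntrk3 and Igf1r rise together (r = 0.74), Ntrk2 and Nrn1 go opposite ways (r = -0.67), and Dox replicates 1 and 2 stand alone at the left of the Bdnf axis.

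The genes whose deviations were most like those of Nrn1, Igf1r and Ntrk3, the 3 genes with the smallest p, were searched among the 12128 genes that averaged 50 normalized counts or more. Nrn1 was close to Olfm1 (r = 0.90) and Cst6 (r = 0.88). Igf1r was closest to Wdfy3 (r = 0.90), Kif21b (r = 0.87) and Unc80 (r = 0.85). Ntrk3 was closest to Fndc3b (r = 0.90), Pde10a (r = 0.89) and Ryr2 (r = 0.88). Among the 16 libraries of the first kind alone these values ran from 0.72 for Unc80 to 0.91 for Cst6. Of these 8 genes 0 passed at p under 0.01 in limma's test in any comparison, and 3 passed at 0.05, namely Ryr2 (0.43) and Wdfy3 (0.26) in Dox + ABT minus Veh and Pde10a (0.30) in Dox minus Veh. Of all genes, 2.87% passed at 0.01 in Dox minus Veh, 7.84% in Dox + ABT minus Veh and 4.03% in Dox + ABT minus Dox. At 0.05 these shares were 10.2%, 22.5% and 12.7%.

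Around the 9 genes, 124 related genes in 8 lists were examined, of which 111 were tested. At p under 0.01 in limma's test, 2 were higher and 2 lower in Dox than in Veh, where 1.02% and 1.85% of all genes were. In Dox + ABT against Veh 4 were higher and 8 lower (3.89% and 3.95% of all genes), and in Dox + ABT against Dox 5 were higher and 4 lower (1.71% and 2.32%). When the kind was a covariate these counts were 2 and 2, 0 and 2, and 5 and 4, against 1.07% and 1.63%, 0.641% and 0.731%, and 2.04% and 2.73% of all genes. Adjusted for all tested genes, 0 of 111 passed at 0.05 in each comparison, while 14, 23 and 17 passed at an unadjusted p under 0.05, as 10.2%, 22.5% and 12.7% of all genes did.

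Other ligands and receptors of the family held 8 tested genes, and 0 of 8 passed at p under 0.01 in any comparison. Those with the smallest p were Sorcs2, a relative of sortilin, at -0.28 in Dox + ABT minus Veh (limma, p = 0.0126, adjusted p = 0.135), and Lingo1, a co-receptor of Ngfr, at -0.26 in Dox + ABT minus Dox (limma, p = 0.0494, adjusted p = 0.393). Neither passed the threshold of 0.01, and in the fit with the kind as covariate they were at -0.11 and -0.19 (limma, p = 0.196 and 0.104).

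Among the genes that process the precursors, Plat, the tissue plasminogen activator that through plasmin helps to cut the Bdnf precursor, ran from 394 to 705 normalized counts in Veh, from 552 to 1528 in Dox and from 384 to 628 in Dox + ABT. It rose by 0.63 ± 0.16 (SE) on the log2 scale in Dox against Veh (limma, p = 0.000690, adjusted p = 0.152) and was lower by 0.63 ± 0.17 in Dox + ABT than in Dox (limma, p = 0.00112, adjusted p = 0.162). The highest values, 1528 and 1292, belonged to Dox replicates 1 and 2, the rats with the lowest Bdnf, and 4 of the 8 Dox rats (replicates 1, 2, 5 and 7) lay above every Veh rat. These 4 also had the highest sums of their group for 4 red-cell markers, from 25720.3 to 128552 against 3608 to 14061 in the other 4 Dox rats, and for 6 choroid plexus markers, from 195 to 315 against 37.3 to 66.8. In Veh and Dox + ABT these sums ran from 2327 to 25997 and from 3172 to 11576 for red cells, and from 45.6 to 182 and from 55.6 to 404 for choroid plexus, whose Kl, Folr1 and Clic6 were at 0 in some rats. None of these markers (0 of 4 and 0 of the 4 choroid plexus markers tested) passed at p under 0.01 in limma's test in any comparison, and their part in the Plat difference was not tested. With each rat left out in turn the difference from Veh stayed between 0.50 and 0.71, but a fit without both Dox replicates 1 and 2 was not run. Serpini1, or neuroserpin, which inhibits this protease, averaged 1521 ± 194 for the 10 Veh rats (SD), 1648 ± 192 for the 8 Dox rats and 1795 ± 178 for the 8 Dox + ABT rats. Serpini1 rose by 0.24 in Dox + ABT against Veh (limma, p = 0.00634, adjusted p = 0.116). In the fit with the kind as covariate this was 0.17 (limma, p = 0.0474). Of the 9 genes tested in this list, Plat was the 1 that passed in Dox minus Veh and in Dox + ABT minus Dox, and Serpini1 and Pcsk6 passed in Dox + ABT minus Veh, Pcsk6 at -0.36. The value of Pcsk6 was -0.19 in the fit with the kind as covariate (limma, p = 0.102).

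The Trk adaptors and signalling genes held 33 tested genes, with a median log2 difference of -0.051, 0.027 and -0.024 in the 3 comparisons. In Dox against Veh 0 were higher and 1 lower (Shc1), in Dox + ABT against Veh 1 was higher (Plcg1) and 4 lower (Akt1, Mapk3, Map2k2 and Sh2b2), and in Dox + ABT against Dox 2 were higher (Shc1 and Nras) and 2 lower (Akt1 and Grb2). When the kind was a covariate, 0 were higher and 1 lower (Akt1) in Dox + ABT against Veh, with Plcg1 at 0.17, Map2k2 at -0.14 and Sh2b2 at -0.37 (limma, p = 0.0375, 0.0863 and 0.0296), and Nras was at 0.25 between the treated groups (limma, p = 0.0179). Akt1, a kinase downstream of Trk and Igf1r, ran from 2662 to 4431 normalized counts in Veh (median 3834), from 3035 to 4076 in Dox (median 3407) and from 2167 to 3250.2 in Dox + ABT (median 2593). The Dox + ABT rats were low, and the groups overlapped. Akt1 fell by 0.44 ± 0.11 (SE) in Dox + ABT against Veh (limma, p = 0.000331, adjusted p = 0.108) and by 0.39 ± 0.11 against Dox (limma, p = 0.00189, adjusted p = 0.171). The fit with the kind as covariate gave -0.29 (limma, p = 0.00408) and -0.31 (limma, p = 0.00196). Mapk3, or ERK1, was lower by 0.36 in Dox + ABT than in Veh (limma, p = 0.00165, adjusted p = 0.109), and by 0.28 with that covariate (limma, p = 0.0130).

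Among the partners of Ngfr, 12 were tested. In Dox + ABT against Veh Nsmaf was higher by 0.35 (limma, p = 0.00760, adjusted p = 0.120) and Arhgdia was lower by 0.49 (limma, p = 0.00324, adjusted p = 0.110), while 0 of 12 passed in the other comparisons. They were 0.22 and -0.19 in the fit with the kind as covariate, neither at p under 0.01.

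The regulators of Bdnf held 14 tested genes. Npas4, an activity-induced transcription factor that acts on Bdnf promoters, ran from 24.7 to 58.4 normalized counts in Veh (median 32.6), from 9.10 to 37.1 in Dox (median 10.6) and from 17.4 to 79.4 in Dox + ABT (median 29.0). In Dox 6 of the 8 rats lay at 9.10 to 12.3, below every rat of the other groups, and the other 2, at 35.0 and 37.1, lay within them. Npas4 fell by 1.16 ± 0.31 (SE) on the log2 scale in Dox against Veh (limma, p = 0.000828, adjusted p = 0.157) and was higher by 1.20 ± 0.33 in Dox + ABT than in Dox (limma, p = 0.000991, adjusted p = 0.161). It was the 1 of the 14 that passed in both comparisons. The 6 low rats included Dox replicates 1 and 2, with the lowest Bdnf, at 10.4 and 9.39 for Npas4, and also Dox replicates 5, 7 and 13, whose Bdnf was 1214, 1153 and 1142. Rest, a repressor of neuronal genes, was higher by 0.58 in Dox + ABT than in Veh (limma, p = 0.00793, adjusted p = 0.120), and by 0.33 with the kind as covariate (limma, p = 0.0952). In that fit Mef2d passed in Dox + ABT minus Veh at -0.31 (limma, p = 0.00699), against -0.23 without the covariate (limma, p = 0.0331).

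In the IGF and insulin axis 0 of 12 tested genes passed at p under 0.01 in any comparison, and 2, 1 and 0 passed at 0.05, where 10.2%, 22.5% and 12.7% of all genes did. Igf2r, which clears insulin-like growth factor 2, was at 0.28 in Dox minus Veh (limma, p = 0.0232, adjusted p = 0.434), and Igfbp2, a binding protein, at -0.43 in Dox + ABT minus Veh (limma, p = 0.0278, adjusted p = 0.175), which was -0.15 with the kind as covariate (limma, p = 0.333). The granins and relatives of Nrn1 gave 0 of 7 at 0.01 in any comparison, and 1 of 7 in Dox + ABT minus Dox with the kind as covariate (Scg3, 0.29, limma, p = 0.00209). Scg3, a granin of secretory granules, was at -0.30 in Dox minus Veh (limma, p = 0.0119, adjusted p = 0.366), and Nptx1, a synaptic pentraxin, at -0.32 in Dox + ABT minus Dox (limma, p = 0.0781, adjusted p = 0.448).

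Other neurotrophic factors and receptors held 16 tested genes, with a median of -0.20 in Dox minus Veh, where 13 of 16 were below 0, against a median of 0.0050 over all genes. At p under 0.01, 1 of 16 was higher (Ret) and 0 were lower, where 1.02% and 1.85% of all genes were. A shift of the list as a whole was not tested. Ret, the receptor kinase of the GDNF family, ran from 133 to 261 normalized counts in Veh (median 197), from 225 to 586 in Dox (median 286) and from 183 to 286 in Dox + ABT (median 203). Its highest values, 586 and 539.7, again belonged to Dox replicates 1 and 2. Ret rose by 0.70 ± 0.17 (SE) in Dox against Veh (limma, p = 0.000268, adjusted p = 0.114) and was lower by 0.57 ± 0.18 in Dox + ABT than in Dox (limma, p = 0.00295, adjusted p = 0.186). Nrtn, or neurturin, a ligand of that family, was low, with 9.51 to 41.8 normalized counts in Veh (median 21.2), 12.3 to 23.5 in Dox (median 17.5) and 3.54 to 21.7 in Dox + ABT (median 9.92). It fell by 0.97 in Dox + ABT against Veh (limma, p = 0.00444, adjusted p = 0.114). Cntfr also passed there, lower in Dox + ABT at -0.29 but at -0.16 with the kind as covariate (limma, p = 0.0928), and Fgf1 and Ptn passed in Dox + ABT minus Dox, higher in Dox + ABT. In the fit with the kind as covariate Nrtn was at -0.78 (limma, p = 0.0269).

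**Figure D5:**
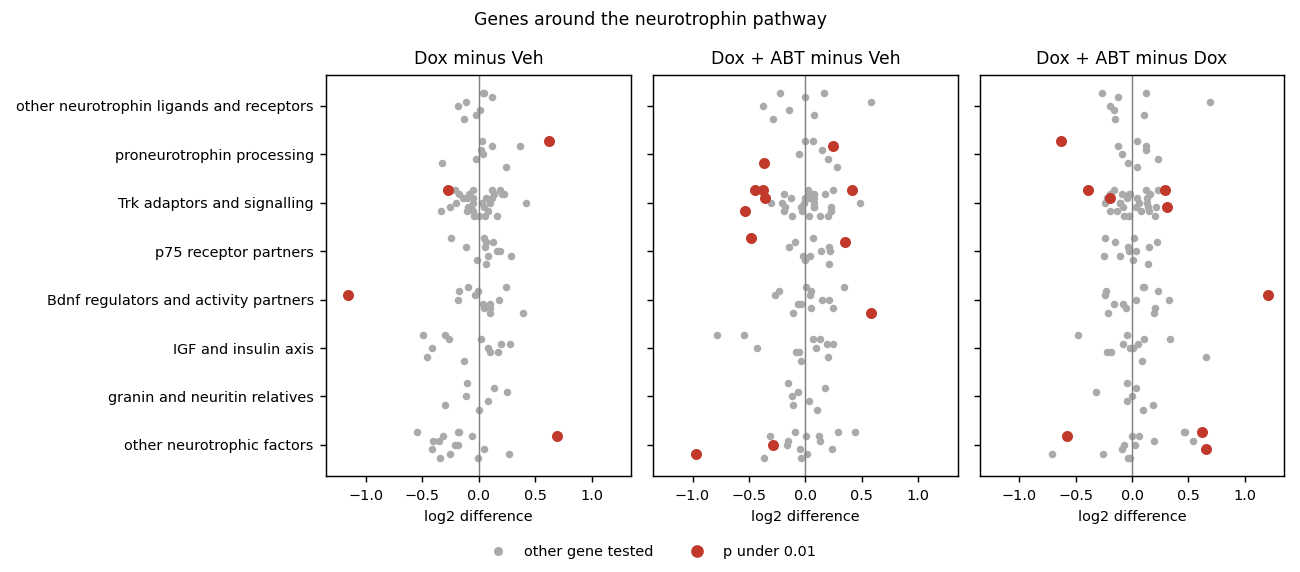
Log2 differences of the 111 related genes tested, by list and comparison, with genes at p under 0.01 in limma's test in red. Npas4 lies at -1.16 in Dox minus Veh and at 1.20 in Dox + ABT minus Dox, and 4, 12 and 9 genes are red in the 3 panels.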

How the data were processed

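The authors sequenced poly(A) RNA on an Ion Proton instrument, aligned reads to rn6 with STAR 2.5.3a in Partek Flow and, for each transcript row, divided the estimated count by the library's Median Ratio factor. The deposited values are this normalized signal, which the authors tested with DESeq2 at p under 0.01. The samples' groups and replicate numbers come from the labels, and 0 columns of values were left unmapped. Low values were whole reads (within 0.02) for 75.2% to 78.7% of values of genes with 1 row but 9.75% to 14.7% of those with several, so counts were not recovered and no count test was run. Library depth was estimated from the same steps, and counting error is small except for genes near the filter.

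Rows were summed by gene ID, and log2(value + 1) of 15595 genes with a mean of at least 5 was fitted with limma 3.58.1 in R 4.3.3 (all 26 rats, 3 groups, no covariate, eBayes with trend), called at p under 0.01, with Benjamini-Hochberg adjustment over all tested genes. The fit was tested on simulated data. Exact permutation tests ran over all splits of the rats. The kinds of library came from the first principal component of within-group deviations (mean of at least 20), split at the widest gap of the libraries' scores. Alternatives were pseudocounts of 0.5 and 5, no filter or a mean of at least 20, the compared groups alone, TMM and quantile scaling, array weights, the kind of library as covariate or within a kind, the replicate number as a block, transcript rows, and leaving out each rat. The covariates of the ribosomal share and of a kind split within groups were added after seeing the data.

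The members and lists were chosen with earlier results of these data known. Named were all 9 members, the 2 genes of each list with the smallest p, and the 3 genes most like each of the 3 members with the smallest p. Of the genes this rule and the marker lists name, 2 are not reported here. Pcsk6, Shc1, Plcg1, Map2k2, Sh2b2, Nras, Grb2, Cntfr, Fgf1, Ptn, Mef2d and the marker genes were named after their values were seen. Replicate numbers run within groups and number different rats. Promoters came from RefSeq (GRCr8), matched by symbol for 5 of the 9 members. Whether the replicates are separate animals rests on the labels. Tdo2 and Pecam1 had no row under that symbol. Figures were drawn with matplotlib 3.10.9.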

Additional observations from a re-analysis of the deposited data

Results flagged for a closer look

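Ntrk3 in Dox + ABT replicate 4, at 807.665 normalized counts, stood far from the other 7 rats of its group, which ran from 1094 to 1305. It was 1 of 27 groups of values examined for such a gap, and chance marks about 1 in 20. The rat was the 1 Dox + ABT library of the second kind and had the highest sum of CA field markers of all 26 rats, 24902 normalized counts over 6 genes. Without it, Dox + ABT minus Veh for Ntrk3 was 0.27 (limma, p = 0.0124).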

How the results depend on the processing

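The count of 0 of 9 members at p under 0.01 became 2, 2 and 1 (Dox minus Veh, Dox + ABT minus Veh, Dox + ABT minus Dox) with array weights, under which 20.2%, 34% and 10.3% of all genes passed. With the kind split within groups as a covariate it was 2 and 2 in the comparisons with Veh, where 8.83% and 20.1% of all genes passed. That split sets only Veh replicates 10 and 11 apart and so adjusts no treated rat. The count was 1 in Dox + ABT minus Dox with the compared groups alone, where 4.51% of all genes passed. With 1 rat left out it ran from 0 to 1 in each comparison, 1 without Veh replicate 11 (Igf1r, both comparisons with Veh) and without Dox + ABT replicate 1 (Nrn1). The genes were Igf1r and Ntrk3 against Veh (with the kind split, Ntrk3 at 0.28 and 0.30) and Nrn1 between the treated groups. Other alternatives gave 0. The replicate numbers do not pair the rats: correlations of same-numbered rats' deviations ran from -0.17 to 0.30, and the replicate block left the count at 0 of 9 in each comparison while 4.91%, 7.57% and 2.58% of all genes passed.

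No called member changed direction, since none was called. Differences of up to 0.29 in size changed sign, and the cause was not tested. In Dox minus Veh, Bdnf was 0.023 with the kind covariate, 0.020 with the ribosomal share, 0.35 within the second kind and 0.076, 0.14, 0.011, 0.12, 0.38 and 0.21 in transcript rows 3 to 8. Ntf3 was -0.20 with array weights, -0.041 with the kind split within groups, -0.15 within the second kind and -0.23 and -0.0016 in rows 1 and 2. Ntrk2 was -0.0026 with the ribosomal share and -0.045 within the first kind. Ngfr was 0.096 with the replicate block and 0.30 within the second kind, Sort1 -0.025 within the second kind and Nrn1 -0.054 with the replicate block.

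In Dox + ABT minus Veh, Bdnf was -0.23 and -0.16 in rows 2 and 6. Ntf3 was 0.016 with the kind covariate, 0.072 with the ribosomal share, 0.21 within the first kind and 0.067 and 0.073 in rows 1 and 3. Ntrk2 was 0.098 with quantile normalization and 0.015 with array weights, and Ntrk3 -0.015 in row 2. Ngfr was 0.051 with a pseudocount of 5, 0.12 with array weights, 0.089 with the kind covariate and 0.092 with the ribosomal share. Sort1 was -0.021 with the ribosomal share and -0.044 within the first kind, Nrn1 0.0059 within the first kind, and Vgf 0.024 with quantile normalization, 0.024 with the kind covariate and 0.0059 within the first kind.

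In Dox + ABT minus Dox, Bdnf was -0.12 and -0.28 in rows 4 and 6, and Ntf3 0.098 with array weights and 0.30 in row 1. Ntrk2 was 0.055 and Sort1 0.087 with quantile normalization, and Ngfr -0.25 with the replicate block. Ntrk3 was -0.012 with array weights, -0.069 with the kind covariate, -0.055 with the ribosomal share, -0.032 within the first kind and -0.15 and -0.68 in rows 2 and 3.

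With 1 rat left out, signs changed for Bdnf (-0.100 to 0.11), Ntf3 (-0.056 to 0.081) and Ntrk2 (-0.0096 to 0.063) in Dox minus Veh, for Ntf3 (-0.074 to 0.024), Ngfr (-0.26 to 0.38) and Vgf (-0.086 to 0.044) in Dox + ABT minus Veh, and for Bdnf (-0.060 to 0.15), Ntf3 (-0.11 to 0.027), Ntrk3 (-0.021 to 0.094), Sort1 (-0.049 to 0.019) and Igf1r (-0.072 to 0.0073) in Dox + ABT minus Dox. Igf1r minus Veh and Nrn1 between the treated groups kept their sign under all alternatives run, but p rose to 0.662 for Nrn1 (-0.078, replicate block) and, within the first kind, to 0.435 and 0.927 for Igf1r in Dox and Dox + ABT (limma). Of the related genes named, Plat, Akt1, Mapk3, Arhgdia, Npas4 and Ret kept p under 0.01 with each rat left out, and Serpini1, Nsmaf, Rest and Nrtn lost it in 9, 6, 11 and 3 such fits. Npas4 lost it with array weights and within the first kind (-1.06 and 1.10), Plat (0.62, as in all rats) and Akt1 (-0.15), both against Veh, within the first kind, and Akt1 between the treated groups with the replicate block.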
